A study of Mus musculus with 6 samples.

Results

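Genes of the erythroid lineage, the line of blood cells that ends in red cells, were followed in hematopoietic stem and progenitor cells of mice with and without deletion of Yy1. The members were the rows of the deposited gene table whose gene name was one of 10 listed names. Of these, 8 were found among 15553 rows: Gata1, Epor, Gfi1b, Car1, Car2, Hba-a2, Hbb-bt and Hemgn. The names Klf1, a zinc-finger activator of globin genes, and Hba-a1, an alpha-globin gene, matched no row and were not analysed here. The series held 6 RNA-seq libraries of bone marrow cells from C57BL/6 mice aged 6 to 8 weeks, 3 labelled wild type with the genotype Mx1-Cre and 3 labelled Yy1-KO with the genotype Yy1f/f;Mx1-Cre. Both groups carried Mx1-Cre, a Cre recombinase under an interferon-inducible promoter that acts in more tissues than blood, and the labels do not give how or when it was induced. The cells were negative for mature lineage markers and positive for Sca1 and c-Kit. The protocol names CD48-negative gates both with and without CD150, and the source label names CD150-positive cells. Whether the 3 libraries of a genotype come from 3 mice is not given in the labels, and the p-values below may therefore reflect technical spread only.

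Red cell production starts in progenitors that turn on GATA1, a zinc-finger transcription factor that binds GATA motifs and activates most genes of the mature red cell. GFI1B, a repressor, acts beside it, and erythropoietin, bound by its receptor EPOR on the cell surface, keeps the precursors alive. Globin chains, carbonic anhydrases and the proteins of the red cell membrane and its skeleton build up later, as the precursors mature.

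The deposited values are RPKM, reads scaled by gene length and by library size, so that levels of different genes can be set side by side. The library size behind these values, estimated from what 1 read was worth, was between 12920190 and 19535460 reads. Yy1 itself stood at 31.6, 42.3 and 52.1 RPKM in wild type replicates 1 to 3 and at 36.2, 16.6 and 28.5 RPKM in knockout replicates 1 to 3. The library labelled Yy1 knockout replicate 1 thus lay within the wild-type range at this gene, and the values cover the whole gene, including any part that was not deleted. All 14 genes of a stem cell list were present in the table, against 2 of 10 B cell genes and 4 of 10 T and NK cell genes. Of the megakaryocyte and platelet genes 17 of 18 were present, of the granulocyte genes 12 of 15, and of the monocyte and macrophage genes 9 of 15. Differences were tested with limma on log2(RPKM + 0.5) over 13179 genes, those that reached 1 RPKM in 3 or more libraries, which kept 7 of the 8 members. Fold changes below compare knockout with wild type on that scale, as log2 values, and the added 0.5 makes the change of low genes look smaller. No gene of the 13179 passed a Benjamini-Hochberg adjusted p of 0.05 in limma (0.00% called), while 1027 (7.79%) had an unadjusted p under 0.05, and limma-voom on recovered reads called 6 of 13114 genes (0.0458%). In tissue or sorted cells measured in bulk, fewer cells of a type and less RNA per cell cannot be told apart.

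None of the 7 tested members passed in limma, none passed in limma-voom, and none of the 8 had an adjusted p under 0.05 in the authors' deposited table, where 24 of 15553 genes did (0.154%). At an unadjusted p under 0.05, 1 of the 7 was lower in knockout in limma, as were 3.06% of all tested genes, and 0 were higher, beside 4.73% of all tested genes. Car2 was that gene. Its libraries were also the only ones among the 8 members that did not overlap between genotypes, beside 14.5% of all tested genes without overlap. The median log2 fold change of the 7 was -0.054, with 3 of them above 0, and over all tested genes the median was 0.022. The median of the 7 was between 0.080 and 0.32 without each library in turn, so it did not keep its sign.

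**Figure D1:**
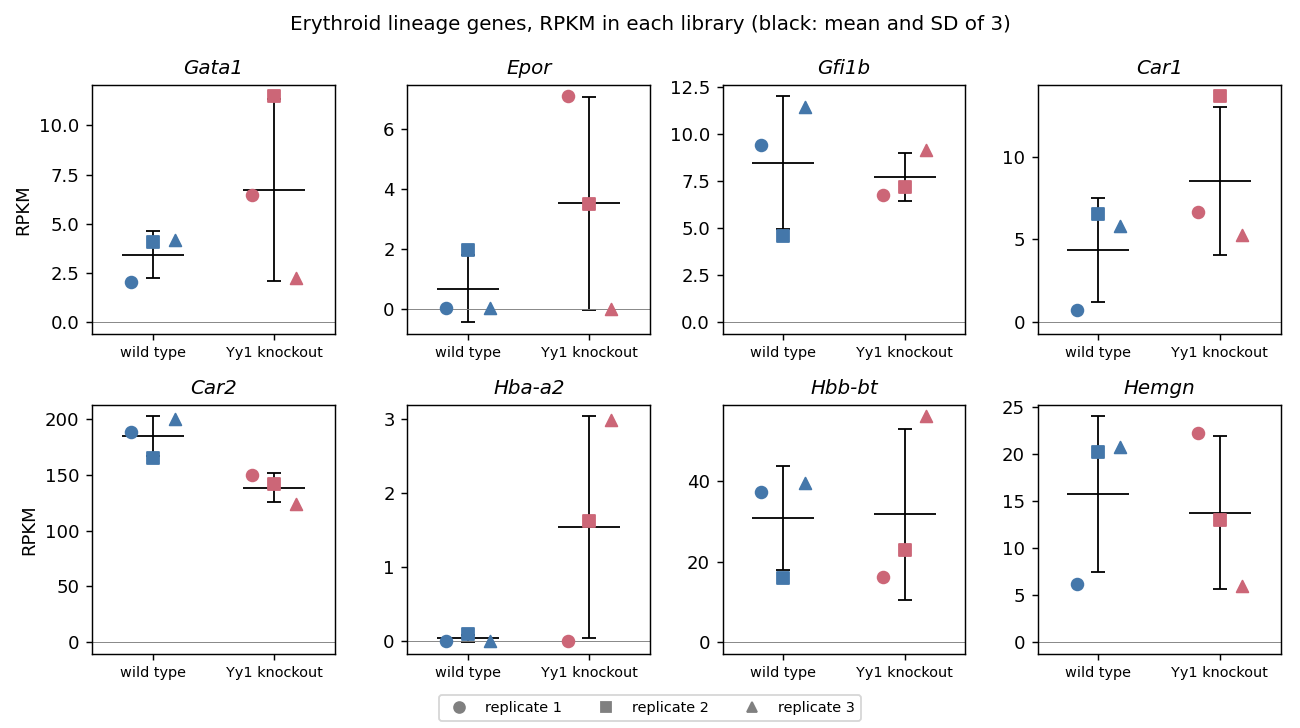
RPKM of the 8 listed erythroid genes (vertical axes, a separate linear scale per gene) in the wild-type and Yy1 knockout libraries, with 1 symbol per replicate and a black bar for the mean and SD of 3 libraries. The 2 genotypes overlap in every panel but that of Car2, where the knockout libraries lie between 124 and 149 RPKM and the wild-type libraries between 165 and 200.

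Gata1 and Epor are shown first by the 250 bases that lie before their RefSeq starts (build GRCm38.p6), because both were highest in knockout replicates 1 and 2. The Gata1 promoter spans chrX:7967911-7968160 and the Epor promoter chr9:21963577-21963826, both on the minus strand. Capitals mark matches, on either strand, to the GATA motif AGATAA, to the KLF motif CCNCNCCC bound by KLF1 and its relatives, or to the YY1 motif GCCATNTT. Matches of a motif can overlap each other.
Gata1: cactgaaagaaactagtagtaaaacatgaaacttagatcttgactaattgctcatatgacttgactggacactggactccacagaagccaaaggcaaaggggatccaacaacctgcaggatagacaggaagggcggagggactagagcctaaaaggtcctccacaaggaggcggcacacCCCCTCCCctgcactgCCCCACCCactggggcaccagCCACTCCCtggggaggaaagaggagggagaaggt
Epor: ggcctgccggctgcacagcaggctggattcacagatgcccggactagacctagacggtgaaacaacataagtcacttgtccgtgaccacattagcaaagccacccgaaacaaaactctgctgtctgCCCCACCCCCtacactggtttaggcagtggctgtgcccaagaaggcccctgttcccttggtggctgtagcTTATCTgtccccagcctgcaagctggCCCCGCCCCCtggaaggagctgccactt
The Gata1 window held 3 KLF matches, no GATA match and no YY1 match. The Epor window held 1 GATA match, 54 bases before the start and spelled on the other strand, 4 KLF matches of which pairs overlap, and no YY1 match. Among 32851 RefSeq promoter windows of the same length, 9.99% held the GATA motif, 45.9% the KLF motif and 3.91% the YY1 motif. The 8 names with a window there include Klf1 and Hba-a1 but not Car1 and Car2, whose promoters were not examined. None of these 8 windows held the YY1 motif. These are matches of letters, and no binding was measured.

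Gata1 (ENSMUSG00000031162, chromosome X: 7959260 to 7978071, minus strand) encodes the transcription factor that commits cells to the erythroid and megakaryocyte lines. It stood at 2.06, 4.07 and 4.19 RPKM over wild type replicates 1 to 3, against 6.48, 11.5 and 2.25 RPKM over knockout replicates 1 to 3. Knockout replicates 1 and 2 lay above every wild-type library, while knockout replicate 3 lay between wild type replicates 1 and 2. Mean levels were 3.44 ± 1.19 RPKM in wild type against 6.74 ± 4.63 RPKM for knockout (all means are ± SD, n = 3). The log2 fold change was 0.69 (standard error 0.61), with a 95% interval from -0.73 to 2.10 and a limma adjusted p of 0.818, short of the threshold. The estimate fell to 0.20 when knockout replicate 2 was left out and reached 1.27 when knockout replicate 3 was. With the library labelled Yy1 knockout replicate 1 left out it was 0.59.

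Gata1 is known to take over sites from GATA2, the related factor of stem cells, as erythroid cells mature. Gata2 lay between 44.6 and 44.8 RPKM in wild type, while knockout libraries had 47.2, 41.8 and 33.4 RPKM. The RPKM of Gata2 was 21.7, 10.9 and 10.7 times that of Gata1 across wild type, against 7.28, 3.64 and 14.9 times across knockout. Gata2 thus exceeded Gata1 in all 6 libraries, and the range of this ratio overlapped between genotypes.

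Epor (ENSMUSG00000006235, chromosome 9: 21958897 to 21963506, minus strand), the receptor gene, read 0.042, 1.97 and 0.037 RPKM across wild type against 7.10, 3.50 and 0 RPKM across knockout. These were 1, 58 and 1 reads across wild type, against 226, 112 and 0 reads across knockout, when the smallest value was taken as 1 read, which gave a counted gene length of 1829 bases. A count of 0 in knockout replicate 3 allows a level of up to 0.084 RPKM, for counting error only. Epor was thus nearly or fully absent from 2 wild-type libraries and 1 knockout library, and clearly counted in the other 3. The fitted log2 fold change was 1.47 (standard error 1.17), with a 95% interval from -1.26 to 4.19 and a limma adjusted p of 0.803. Leaving out knockout replicate 1 gave 0.66, and leaving out knockout replicate 3 gave 2.62. At the pooled SD within a genotype, 1.71 on the log2(RPKM + 0.5) scale, Epor varied more than 93.5% of the 200 genes nearest to it in mean level.

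Gfi1b (ENSMUSG00000026815, chromosome 2: 28609450 to 28621982, minus strand), the repressor gene of erythroid and megakaryocyte cells, read 9.43, 4.58 and 11.4 RPKM across wild type against 6.75, 7.18 and 9.15 RPKM across knockout, so that the knockout libraries lay inside the wild-type range. Its log2 fold change was -0.054, with a 95% interval from -0.97 to 0.86 and a limma adjusted p of 0.982.

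Hemgn (ENSMUSG00000028332, chromosome 4: 46393989 to 46413506, minus strand) encodes hemogen, a nuclear protein of blood-forming cells that GATA1 is known to activate. It read 6.20, 20.2 and 20.7 RPKM across wild type against 22.2, 13.0 and 6.03 RPKM across knockout. Each genotype thus had libraries near 6 and libraries above 20 RPKM. Its means were 15.7 ± 8.25 and 13.7 ± 8.11 RPKM. Its fold change was -0.19 on the log2 scale, with a 95% interval from -1.56 to 1.19 and a limma adjusted p of 0.954.

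By the fixed rule, the 3 genes nearest to Gata1 in profile over the 6 libraries were Zbtb10, Slc31a1 and Macrod1, out of 9246 tested genes with a mean of at least 5 RPKM. The root mean square difference of their centred log2(RPKM + 0.5) values from those of Gata1 was 0.34, 0.36 and 0.37. Slc31a1, the gene of a copper transporter, read 3.11, 6.37 and 9.73 RPKM across wild type against 12.7, 11.4 and 4.16 RPKM across knockout. All 3 genes shared with Gata1 the low values of wild type replicate 1 and knockout replicate 3. The same rule could not be used for Hba-a1, which had no row.

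Car2 (ENSMUSG00000027562, chromosome 3: 14886273 to 14900770, plus strand) and Car1 (ENSMUSG00000027556, chromosome 3: 14766216 to 14808368, minus strand) are genes of carbonic anhydrases on the same chromosome, with Car3 between them. Carbonic anhydrases are enzymes that turn carbon dioxide and water into bicarbonate in the red cell. Car2 read 188, 165 and 200 RPKM across wild type against 149, 142 and 124 RPKM across knockout. All 3 knockout libraries lay below all 3 wild-type libraries, as in 6.87% of all tested genes. The means were 184 ± 17.8 and 138 ± 13.1 RPKM. The log2 fold change was -0.41 (standard error 0.16), with a 95% interval from -0.79 to -0.03, an unadjusted p of 0.0369 and an adjusted p of 0.619 in limma. In the authors' deposited table the log2 fold change was -0.41 and the adjusted p 0.556. In limma it ranged from -0.49 to -0.33 without each library in turn, and was -0.47 with the library labelled Yy1 knockout replicate 1 left out. The mean RPKM over all listed genes was 27.1 ± 1.57 in wild type against 24.9 ± 1.12 for knockout, and under quantile normalization the fold change of Car2 was -0.37. Its unadjusted limma p was 0.0652 there and 0.125 with no variance trend. Without each library in turn that p lay between 0.0389 and 0.104, and only the fit without wild type replicate 2 was under 0.05. With other pseudocounts, other filters, a replicate block or limma-voom it stayed under 0.05.

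Car1 read 0.744, 6.56 and 5.80 RPKM across wild type against 6.68, 13.6 and 5.29 RPKM across knockout. Wild type replicate 1, with 12 reads, was far below the other 5 libraries, and knockout replicate 2 was highest. For Car1 the log2 fold change was 1.14 (standard error 0.73), with a 95% interval from -0.56 to 2.83 and a limma adjusted p of 0.752. It was 0.33 without wild type replicate 1 and 1.58 without wild type replicate 2. Of the windows of 50 bases in Car1 transcripts, 13.4% were shared with another gene, Gm5843, so some of its reads may be hard to place. Car2 had no shared window and exceeded Car1 per length by 10.4 to 253 times over the 6 libraries. The other listed carbonic anhydrases lay at or below 19.7 RPKM in every library. Of 16 names 7 were listed and 6 tested, and Car2 was the only one with an unadjusted p under 0.05.

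Car2 was the most abundant member in both genotypes and lay in each library above all other members. It made up 74.5% ± 3.22 of the summed RPKM of the 8 members in wild type and 65.2% ± 4.68 in knockout. Next by mean came Hbb-bt and Hemgn, whose libraries overlapped each other in each genotype. In wild type Gfi1b, Car1 and Gata1 followed, and in knockout Car1, Gfi1b and Gata1, again with overlap between neighbours. Epor and Hba-a2 were the lowest in both. No library was high throughout: wild type replicate 3 and the 3 knockout libraries each held the highest value of 2 members, while knockout replicate 3 also held the lowest value of 3.

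**Figure D2:**
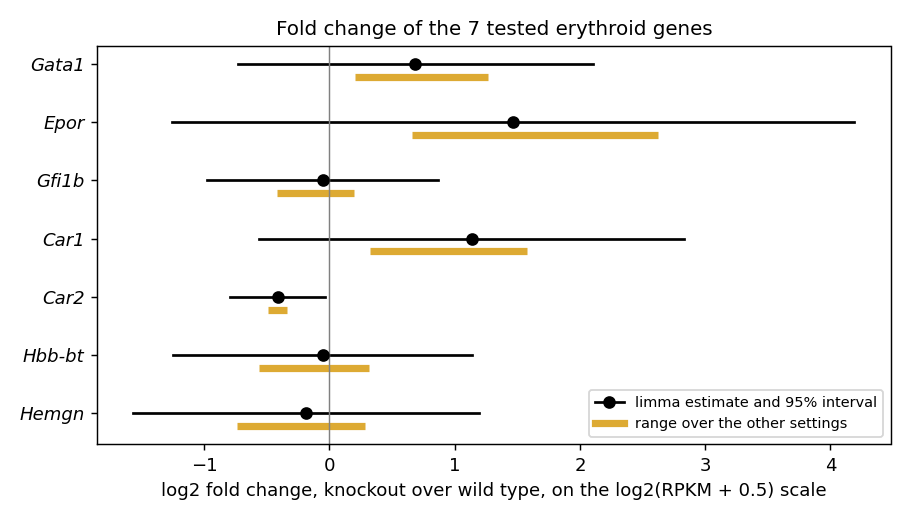
Log2 fold change, knockout against wild type, on the log2(RPKM + 0.5) scale (horizontal axis) for the 7 tested members, with black points and lines for the limma estimate and its 95% interval and thick bars for the range over the other processing settings. The interval of Car2, from -0.79 to -0.03, is the narrowest and the only one that does not include 0, and that of Epor, from -1.26 to 4.19, is the widest.

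The globin genes encode the chains of hemoglobin. Hbb-bt (ENSMUSG00000073940, chromosome 7: 103812524 to 103813996, minus strand), an adult beta-globin gene, read 37.2, 16.0 and 39.5 RPKM across wild type against 16.3, 22.8 and 56.1 RPKM across knockout. Knockout replicate 3 was highest, and the other knockout libraries lay within the wild-type range. For Hbb-bt the log2 fold change was -0.054, with a 95% interval from -1.25 to 1.14 and a limma adjusted p of 0.988. Its pooled SD within a genotype, 0.82 on the log2(RPKM + 0.5) scale, was above that of 96.5% of the 200 genes nearest to it in mean level.

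Hbb-bs, the neighbouring adult beta-globin gene and no member, read 3.50, 14.4 and 15.05 RPKM across wild type against 28.8, 15.6 and 78.8 RPKM across knockout. All 3 knockout libraries lay above all 3 wild-type libraries, as in 7.63% of all tested genes, although knockout replicate 2 exceeded wild type replicate 3 by little. A log2 fold change of 1.78 (standard error 0.70) came with an unadjusted p of 0.0365 and an adjusted p of 0.619 in limma. Of the windows of 50 bases in its transcripts, 53.2% also occurred in Hbb-bt, and 58.3% of the windows of Hbb-bt occurred in Hbb-bs, so the split of reads between the pair is uncertain. The RPKM of Hbb-bs was 0.094, 0.900 and 0.381 times that of Hbb-bt across wild type, against 1.76, 0.684 and 1.41 times across knockout. Summed over the pair, the level was 40.7, 30.4 and 54.6 RPKM across wild type, against 45.1, 38.5 and 135 RPKM across knockout, and the genotypes overlapped.

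Hba-a2 (ENSMUSG00000069917, chromosome 11: 32296489 to 32297298, plus strand), an alpha-globin gene, was listed with 0, 1 and 0 reads across wild type, against 0, 19 and 39 reads across knockout. In RPKM the wild-type libraries had 0, 0.093 and 0, the knockout libraries 0, 1.63 and 2.99. A count of 0 allows up to 0.348 and 0.304 RPKM in wild type replicates 1 and 3 and up to 0.258 RPKM in knockout replicate 1. The gene did not reach the level for testing, and in a fit of all listed genes its limma adjusted p was 0.679. Of the windows of 50 bases in its transcripts, 89.3% also occurred in Hba-a1, so most reads of either gene cannot be assigned to one of them. Whether reads that fit both genes were dropped in the counting was not tested.

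**Figure D3:**
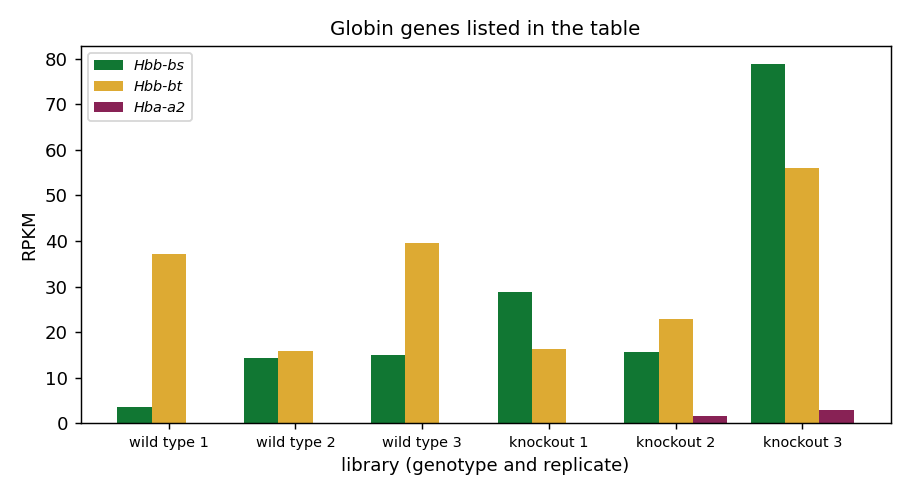
RPKM (vertical axis, from 0) of the 3 globin genes listed in the table, Hbb-bs, Hbb-bt and Hba-a2, in each of the 6 libraries. Knockout replicate 3 has the highest bars for all 3 genes, and Hba-a2 lies at or below 2.99 RPKM throughout.

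The wider erythroid program was followed through lists named in the methods, some of which hold members. Of the 20 erythroid transcription factors and partners, 19 were listed and tested, Gata1 and Gfi1b included. None had an unadjusted p under 0.05 in limma, beside 7.79% of all genes, and the median log2 fold change was -0.054. Tal1, which encodes a partner of GATA1, was the only 1 of the 19 without overlap between genotypes. Among all tested genes 14.5% had no overlap, 6.87% with knockout below. Tal1 read 47.5, 42.6 and 53.1 RPKM across wild type against 34.9, 31.5 and 41.4 RPKM across knockout. The fit gave a log2 fold change of -0.41 and a limma adjusted p of 0.664.

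In the erythropoietin receptor pathway, 16 of 17 genes were listed and tested, Epor included, with a median log2 fold change of -0.09. At an unadjusted p under 0.05 in limma 2 were higher, beside 4.73% of all tested genes, and 1 was lower, beside 3.06%, and none passed the adjusted threshold. Socs1 and Socs2 encode feedback inhibitors of cytokine receptors. Socs2 read 3.11, 4.02 and 0.092 RPKM across wild type against 6.01, 8.79 and 7.99 RPKM across knockout, and Socs1 read 0, 1.48 and 0 RPKM against 5.37, 1.64 and 2.94 RPKM. Socs1, at 0 in most wild-type libraries, reached the level for testing only with its knockout libraries, so its place among the higher genes depends on them. Stat5a, the gene of a transcription factor that the receptor activates, read 18.97, 18.8 and 24.8 RPKM across wild type against 13.9, 13.5 and 10.6 RPKM across knockout. Pik3r1, a subunit gene of the lipid kinase downstream, went from 35.8 ± 8.49 to 26.0 ± 4.45 RPKM. The libraries of these 4 of the 16 genes did not overlap between genotypes, beside 14.5% of all tested genes. Their limma adjusted p-values were 0.628 for Socs2, 0.601 for Socs1, 0.568 for Stat5a and 0.720 for Pik3r1.

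Heme synthesis and iron uptake genes, 17 of which were tested out of 18 listed, had a median log2 fold change of -0.09, with 1 higher and 1 lower at an unadjusted p under 0.05 in limma and 0 past the adjusted threshold. Among all tested genes 4.73% were higher and 3.06% lower at that level. Slc25a38, a mitochondrial carrier gene of early heme synthesis, read 2.93, 1.36 and 0.591 RPKM across wild type against 4.69, 4.85 and 6.97 RPKM across knockout (limma adjusted p = 0.568). The ferritin genes Ftl1 and Fth1, which store iron, lay in the other direction without overlap, as did 6.87% of all tested genes. Ftl1 went from 102 ± 26.3 to 63.9 ± 13.1 RPKM (limma adjusted p = 0.589). Fth1 went from 497 ± 58.1 to 373 ± 63.8 RPKM (limma adjusted p = 0.666).

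In the red cell membrane and skeleton list, more genes reached a measurable level in the knockout libraries. Of its 24 genes 20 were listed, and 6, 8 and 6 of them reached 1 RPKM in wild type replicates 1 to 3, against 15, 16 and 9 in knockout replicates 1 to 3. Among all listed genes the share at 1 RPKM was 76.1% to 83.6% in wild type and 81.4% to 85.1% in knockout. Knockout replicate 3 exceeded the highest wild-type library by 1 gene, so the separation of the genotypes rests on few genes. The gap was also 1 gene when the library labelled Yy1 knockout replicate 1 was left out, and without knockout replicate 3 it was 7. The level of 1 RPKM was chosen with the data in view, and no test was made.

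Of the 20 listed genes, 10 were under 1 RPKM in every wild-type library, and 6, 7 and 2 of these reached 1 RPKM in knockout replicates 1 to 3. Among all genes under 1 RPKM in every wild-type library the shares were 27.1%, 26.7% and 28.5%. Counted over any knockout library, 8 of the 10 reached 1 RPKM, beside 53.1% of all genes picked that way. Genes picked as low in wild type can reach this level only in knockout, so the mirror count was made too. Of the 3 list genes under 1 RPKM in every knockout library, 1 reached 1 RPKM in a wild-type library, beside 50.8% among all genes picked that way. The following genes were named after their values were seen. Sptb, the gene of beta-spectrin in the red cell skeleton, had 0, 17 and 0 reads across wild type, against 451, 268 and 0 reads across knockout. Rhd, a blood group gene, had 0 reads in each wild-type library and 73, 46 and 0 reads in knockout. Both genes, like Epor, were counted in knockout replicates 1 and 2 and at 0 reads in knockout replicate 3. Trim10, a gene of late erythroid cells, had 0 reads in wild type and 0, 56 and 118 reads in knockout, the order that Hba-a2 also had.

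By the fixed rule, the list members without overlap were Kel, Trim58, Tspan33 and Xk, all higher in knockout. Among the 10 tested genes of the list this held for 3, beside 7.63% of all tested genes. Kel, another blood group gene, read 0.084, 0.022 and 0 RPKM across wild type against 3.81, 1.79 and 0.831 RPKM across knockout and was too low for testing. Trim58 encodes a ubiquitin ligase of late red cell precursors. It read 8.37, 7.87 and 0.370 RPKM across wild type against 9.07, 14.7 and 12.1 RPKM across knockout. Tspan33, a tetraspanin gene, went from 0.730 ± 0.255 to 2.78 ± 0.636 RPKM, and Xk, whose product binds the Kell protein, from 3.67 ± 1.84 to 7.21 ± 1.15 RPKM. Tspan33 was under 1 RPKM in every wild-type library, so it was tested only because of its knockout levels. The limma adjusted p was 0.719 for Trim58, 0.611 for Tspan33 and 0.667 for Xk, so none passed. The median log2 fold change of the 10 tested genes, Tspan33 included, was 0.92, with 8 above 0, beside 0.022 over all tested genes. Some others of the 10 also reached the level for testing only with their knockout libraries. The other 10 listed genes, among them those near 0 in wild type, did not enter it.

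**Figure D4:**
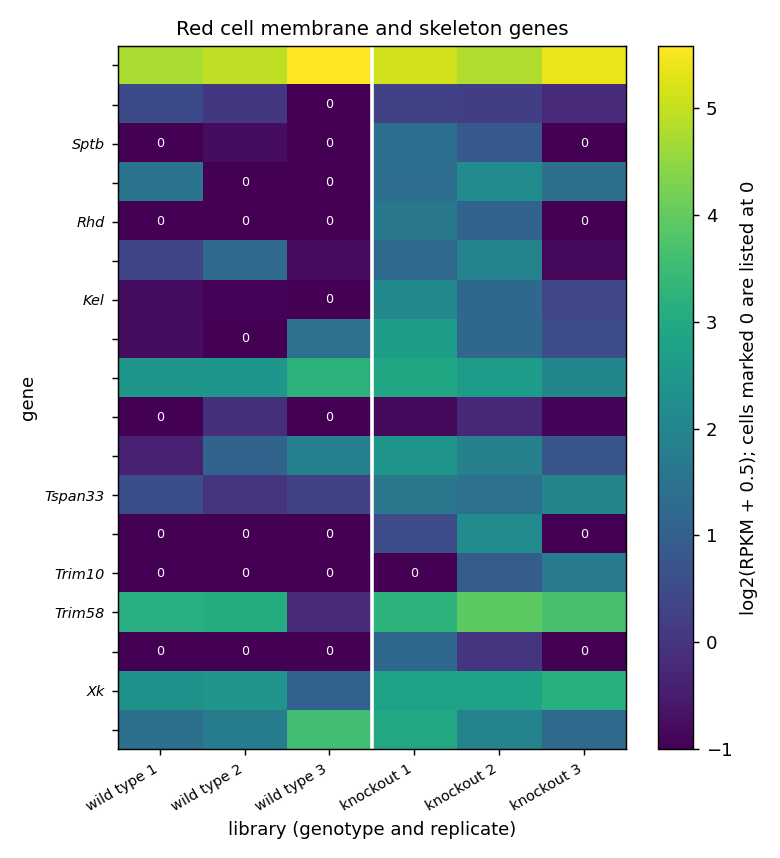
Level, as log2(RPKM + 0.5) on the colour scale, of 18 of the 20 listed red cell membrane and skeleton genes (rows, with the 7 genes named in the text labelled) in the 3 wild-type and 3 knockout libraries (columns), with cells listed at 0 marked. Of these 18 genes, knockout replicates 1 to 3 hold 1, 0 and 4 at 0, and the wild-type libraries hold 6, 6 and 9.

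Other blood lineages were followed beside these counts. The summed RPKM of 17 megakaryocyte and platelet genes was 309 to 322 in wild type and 271 to 327 in knockout, and 1, 1 and 2 of its genes were at 0 in wild type, against 0, 0 and 2 in knockout. In that list Pf4, Gp9 and Itga2b lay higher without overlap. The summed RPKM of 12 granulocyte genes was 24.9 to 210 in wild type and 53.2 to 336 in knockout, highest in knockout replicate 2. That of 9 monocyte and macrophage genes was 80.7 to 122 and 70.8 to 108, with Lyz2 making up most of it. In that list 4, 4 and 5 genes were at 0 in wild type, against 2, 0 and 1 in knockout, so more of its genes were counted in the knockout libraries too. Ccr2 and Vcam1 were at 0 in every wild-type library, and Vcam1 was counted at 3, 49 and 139 reads in knockout. Knockout replicate 2, which was highest for Gata1 and Car1, also had the fewest genes at 0 of all libraries, 373 of 15553, against 747 to 1991 in wild type. Knockout replicates 1 and 3 had 1071 and 1075 genes at 0, within the wild-type range. Of 8 mast cell and basophil genes 2 were listed. Among the tested genes of the granulocyte, B cell, T and NK cell and mast cell lists, 0 had an unadjusted p under 0.05 in limma. In the megakaryocyte list 3 of 14 were higher and 1 was lower at that level, and in the monocyte and macrophage list 1 of 2, Cd68, was higher, beside 4.73% higher and 3.06% lower among all tested genes. In the stem cell list 4 of 14 were lower and none was higher. The part of other cell types, and of the number of genes counted in each library, in the erythroid values was not tested.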

How the data were processed

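Total RNA (RNeasy Micro kit) was amplified into libraries with the Ovation RNA-Seq System V2 and sequenced on an Illumina HiSeq instrument, per the labels' protocols. The submitters' processing notes name mm10, Subread, featureCounts, edgeR and limma for the work of the authors, and no versions, settings or gene filter are given in the sources used here. The deposited library columns hold RPKM, a unit found from the values: multiplied by exonic lengths of GENCODE M21 (GRCm38, the assembly of mm10), they were whole reads within 0.02 reads in all 6 libraries for 71.8% of 15465 genes. Reads of the other genes are estimates. The deposited comparison gives a log2 fold change and p-values before and after adjustment, per the file headers, by a test that is not named there. Every per-sample column was used. Whether the counting used strand is not stated, so overlapping genes may share reads. Amplified reads are not independent molecules, so limits from read counts cover counting error only.

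Genotypes were compared with limma (version 3.58.1, R version 4.3.3), which was run on log2(RPKM + 0.5) with a variance trend and genotype alone in the model. Benjamini-Hochberg adjusted p-values were read at 0.05. The limma test was also tried on simulated reads, and it found few of the changes put in. Where the change put in was 1 log2 unit, 2 of 288 such genes passed (0.69%). Where it was 2 log2 units, 56 of 283 passed (19.8%). These counts were summed over the simulated runs, each of which held both sizes, with 4 false calls in all. A gene that did not pass may therefore still differ between the genotypes. Alternatives were other pseudocounts, other filters, quantile normalization, no trend, a replicate block, limma-voom on recovered reads and each library left out. The members and lists were chosen with earlier results of these data known. Named genes were all members, up to 4 genes per list whose libraries did not overlap between genotypes, ordered by the size of the fold change, any list gene called in the authors' deposited table, and the 3 genes nearest in profile to Gata1 and to Hba-a1. Lists covered globins, erythroid transcription factors, the erythropoietin receptor pathway, carbonic anhydrases, red cell membrane, heme and iron, megakaryocyte, granulocyte, monocyte and macrophage, B cell, T and NK cell, mast cell and basophil, and stem cell genes. Of the stem cell list, Hlf and Kit had an adjusted p under 0.05 in the authors' deposited table, both lower in knockout. Some genes of the lists are counted but not reported here by name. Promoter windows are from the RefSeq table of GRCm38.p6, in which 8 of the 10 names were found, all but Car1 and Car2.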

Additional observations from a re-analysis of the deposited data

How the results depend on the processing

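Over 124 recomputed values of the members' fold changes and the counts of calls, 109 kept their direction and their side of the threshold, 12 changed sign and 3 were counts of called genes that moved. No member passed in any setting run. The number of genes called was 0 in limma, 6 in limma-voom on recovered reads, and between 0 and 1 without each library in turn. In limma-voom the log2 fold change was 0.050 for Gfi1b and 0.077 for Hbb-bt, in place of -0.054 for each. Without each library in turn it ranged from -0.42 to 0.20 for Gfi1b, from -0.56 to 0.32 for Hbb-bt and from -0.74 to 0.29 for Hemgn. The sign changed for Gfi1b without wild type replicate 1 (0.064), wild type replicate 3 (0.20) and knockout replicate 1 (0.029). For Hbb-bt it changed without wild type replicates 1 (0.13) and 3 (0.17) and knockout replicates 1 (0.32) and 2 (0.081), and for Hemgn without wild type replicates 2 (0.080) and 3 (0.098) and knockout replicate 3 (0.29). The cause was not tested. Gata1, Epor, Car1 and Car2 kept their sign throughout. Other filters, no variance trend and the replicate block cannot change a member's fold change, so the signs in those settings were fixed in advance. The members' median was above 0 in 8 of its 14 alternatives, among them 0.32 with no filter, where Hba-a2 entered, 0.077 in limma-voom, and each fit without a library. Gata1 and Epor could not be fitted at the filter of 5 RPKM. Same-numbered libraries of the genotypes had deviations correlated at 0.02, 0.06 and 0.05 across genes, so the numbers do not pair them. The replicate block, which cannot alter a fold change in this balanced design, called 0 genes, with a limma adjusted p of 0.617 for Car2. For red cell membrane and skeleton genes, the gap between the lowest knockout and the highest wild-type library was 2 genes at a level of 0.5 RPKM, 1 at 2 RPKM, and 3 without wild type replicate 2, settings chosen after seeing the data. With few reads in Epor and Hba-a2, depth limits what those values show.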
